A study of Mus musculus with 6 samples.

Results

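The DNA replication genes are 40 protein-coding genes whose products license origins, unwind DNA, copy it, supply nucleotides and drive entry into S phase. They were taken by gene symbol, after version numbers had been removed from the Ensembl identifiers, from a count table of 34866 mouse genes, and all 40 were found and passed the filter on low counts. Bulk RNA-seq was made from the antral mucosa of the stomach, the region next to the outlet, of mice that carry both working copies of Muc6 (Muc6 +/+, wild type, 3 libraries) and of mice that carry none (Muc6 -/-, knockout, 3 libraries). Muc6 encodes a gel-forming mucin that gastric gland cells secrete, and the study made the knockout to examine the gene's link with gastric cancer. The labels give no strain, age or treatment, and they do not state that the libraries of a genotype came from separate animals.

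Before S phase, the origin recognition complex together with Cdc6 and Cdt1 loads the MCM ring onto origins of replication. Cyclin-dependent and Dbf4-dependent kinases then recruit Cdc45 and the GINS complex, which turns the ring into an active helicase. Polymerase alpha-primase lays down RNA-DNA primers, replication factor C loads the PCNA ring, and polymerases epsilon and delta extend the leading and the lagging strand. Many of these genes are transcribed by E2F factors, which retinoblastoma proteins hold in check until cyclin D and cyclin E kinases act. In the gastric antrum, dividing progenitor cells sit in the isthmus and lower part of the glands, between the pit cells at the surface and the gland mucous cells.

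Total counts were 19839799 to 21354029 per library. Muc6 read 396, 403 and 510 CPM (counts per 1e6 of the composition-scaled library size) in wild type 1 to 3, or 23248 counts in all. The knockout libraries read 0.0425, 0 and 0 CPM, or 1 count in all, so the targeted gene matched the labels. The 4 Y-linked genes summed to 5.85 to 6.73 CPM in wild type and 132 to 139 CPM in knockout, so genotype and sex of the animals cannot be told apart. Pit cell markers summed to 157183 to 181527 CPM in wild type and 37204 to 47691 CPM in knockout, with 4 of 4 lower, and Gast, the antral hormone gastrin, fell from 1040 ± 241 to 16.4 ± 7.77 CPM (SD, n = 3 each). Wild type 1 and knockout 1 stood apart from the other 4 libraries on the second principal component, which held 19.6% of the variance.

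The replication genes did not move in one direction. In the knockout 8 of the 40 fell (Orc6, Gins1, Prim1, Pola1, Rfc4, Rpa3, Rrm1 and Tyms), 4 rose (Pold1, Pole, Fen1 and Chaf1a) and 28 did not pass the test (edgeR quasi-likelihood test, Benjamini-Hochberg adjustment over 14017 genes, false discovery rate 0.05). Of all genes tested 38.4% passed, 19.3% higher and 19.2% lower. Among the members 30% passed, 10% higher and 20% lower, so the share that passed was not above that of the table and the share that fell was close to it. The count of members that rose was 0 when wild type 2 or knockout 2 was left out, 1 when library 3 of either genotype was, and 2 when knockout 1 was, while 6 to 9 fell with any 1 library left out. The members' median log2 fold change, knockout over wild type, was -0.02, and that of all genes tested was 0.02. Single genes ranged from -1.52 (Gins1) to 1.02 (Pold1), and those that did not pass from -0.38 (Gins3) to 0.64 (Orc1). The values of the genotypes did not overlap for 21 members, 13 lower and 8 higher in knockout, or 52.5%, beside 54.8% of all genes tested. In bulk tissue, fewer cells that express a gene and less RNA per cell cannot be told apart.

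**Figure D1:**
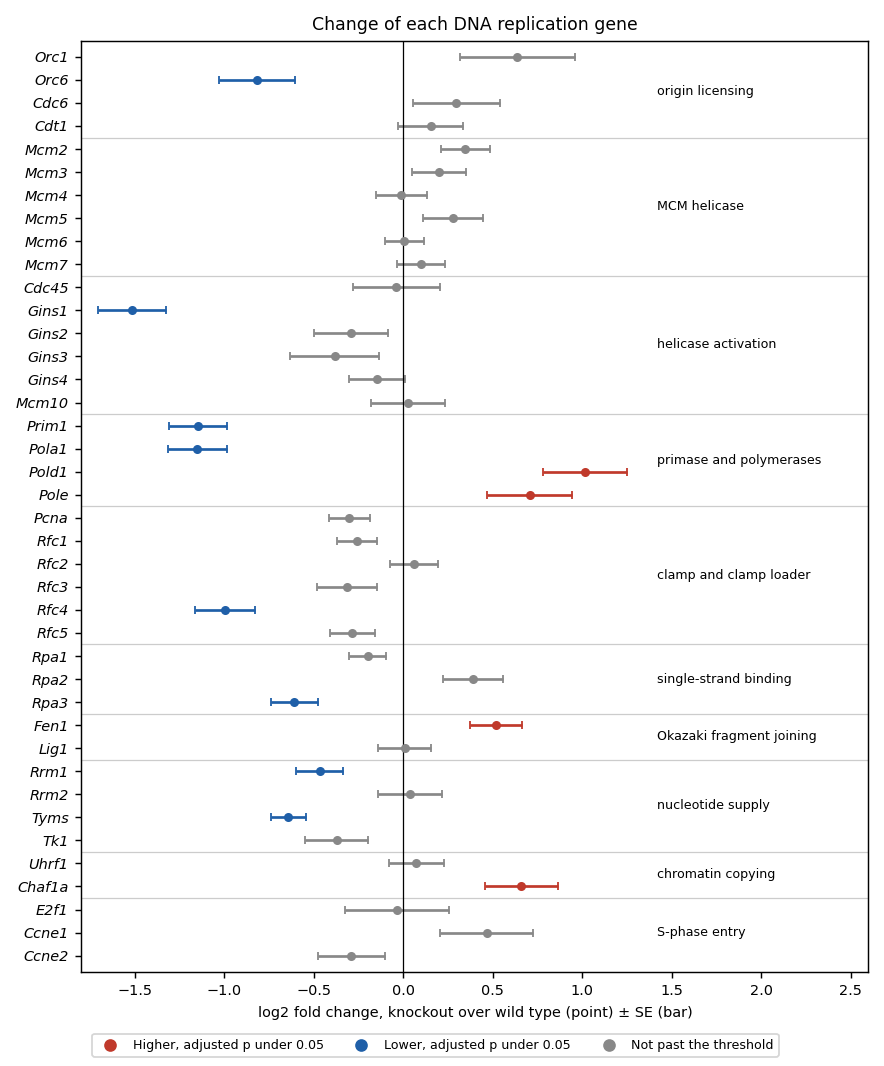
Log2 fold change of each of the 40 genes (x axis, knockout over wild type; points, with bars of ±1 SE), grouped by role from top to bottom and coloured by call. The 6 MCM genes lie between -0.01 and 0.35, while the primase and polymerase genes lie on both sides of 0, from -1.15 to 1.02.

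Library 3 of the wild type gave the lowest wild-type value for 26 of the 40 members and the highest for 0. Knockout 1 gave the lowest knockout value for 29 members. Summed over the 40 genes, the level was 1114, 1146 and 980 CPM in wild type 1 to 3 and 869, 972 and 990 CPM in knockout 1 to 3, so the sums of knockout 3 and wild type 3 overlapped. With both libraries numbered 1 left out, 10 members were lower, 4 were higher and the median was 0.12.

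**Figure D2:**
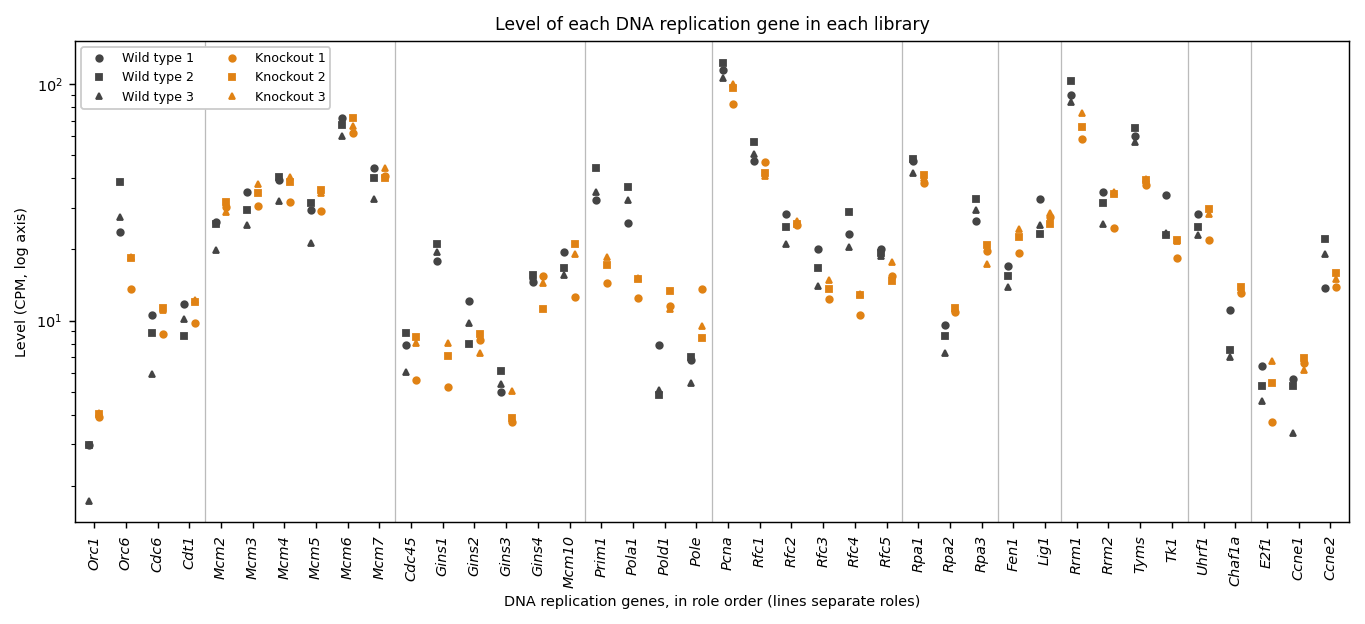
CPM (y axis, log scale) of each of the 40 genes in each of the 6 libraries, with symbols for the library number and grey or orange for wild type or knockout. Vertical lines separate the roles. Pcna and Rrm1 have the highest CPM and Orc1 the lowest, and the knockout symbols lie below the wild-type symbols for Gins1, Prim1, Pola1 and Rfc4.

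Promoter sequence was examined because E2F factors transcribe many of these genes and the members did not move together. RefSeq promoter windows (GRCm38.p6, 250 bases before to 50 after each start) were found for 33 of the 40 members, as 38 windows. An E2F word, here TTTCCCGC, TTTCGCGC, TTTGCCGC or TTTGGCGC on either strand, stood in 13 of 38 member windows (34.2%) and in 2.26% of all 32851 windows. By call, 1 of 3 matched members that rose, 1 of 7 that fell and 11 of 23 that did not pass held one. Among those that fell it was Pola1, and Gins1, the member with the largest fall, had no window. Mcm2, an MCM gene that did not pass, held no E2F word in its window. The box CCAAT was in 63.2% of member windows and 37.4% of all, and TTTGAA in 10.53% and 17.9%. The bases from 250 to 51 before the start are printed below for 2 MCM genes that did not pass and for 3 genes that fell, 5′ to 3′ on the gene's strand, in lower case with E2F words in capitals. They come from chr8:75109259-75109458 (+ strand, Mcm5), chr1:128359756-128359955 (- strand, Mcm6), chrX:93632206-93632405 (- strand, Pola1), chr10:128014965-128015164 (+ strand, Prim1) and chr16:23127781-23127980 (- strand, Rfc4).
Mcm5: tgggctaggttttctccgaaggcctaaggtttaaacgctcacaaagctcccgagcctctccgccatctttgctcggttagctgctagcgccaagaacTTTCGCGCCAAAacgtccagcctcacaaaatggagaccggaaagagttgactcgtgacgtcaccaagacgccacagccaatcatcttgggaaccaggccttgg
Mcm6: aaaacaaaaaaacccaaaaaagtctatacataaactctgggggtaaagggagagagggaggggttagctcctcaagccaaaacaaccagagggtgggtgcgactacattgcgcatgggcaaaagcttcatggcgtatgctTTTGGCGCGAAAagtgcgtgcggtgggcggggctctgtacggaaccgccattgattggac
Pola1: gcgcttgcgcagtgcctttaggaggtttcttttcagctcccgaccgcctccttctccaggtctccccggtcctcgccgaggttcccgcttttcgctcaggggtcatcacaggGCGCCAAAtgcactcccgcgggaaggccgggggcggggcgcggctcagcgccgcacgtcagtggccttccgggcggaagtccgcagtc
Prim1: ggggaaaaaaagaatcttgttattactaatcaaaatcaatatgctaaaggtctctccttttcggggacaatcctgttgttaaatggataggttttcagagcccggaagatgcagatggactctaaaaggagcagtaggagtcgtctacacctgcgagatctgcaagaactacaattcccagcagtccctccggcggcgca
Rfc4: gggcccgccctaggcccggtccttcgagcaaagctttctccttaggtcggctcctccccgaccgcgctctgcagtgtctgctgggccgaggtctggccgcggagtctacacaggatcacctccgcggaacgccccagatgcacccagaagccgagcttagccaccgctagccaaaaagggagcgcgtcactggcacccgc
In Mcm5 and in Mcm6 the capitals are 2 overlapping words, in Pola1 they are 1 word, and the stretches of Prim1 and Rfc4 hold none. A match is a description of letters, and no binding was measured here.

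Origin licensing had 1 gene that fell and 3 that did not pass. Orc6 (chr8:85299632-85308278), the smallest subunit of the origin recognition complex, read 23.6, 38.4 and 27.3 CPM in wild type 1 to 3 and 13.6, 18.4 and 18.6 CPM in knockout 1 to 3. The groups did not overlap, and the log2 fold change was -0.82 ± 0.21 (SE, edgeR adjusted p = 0.0203). Without wild type 2, the highest library, the call was lost (adjusted p = 0.0654), as it was without knockout 1 (0.0538) or knockout 2 (0.0505). Orc1, the subunit whose level cycles with division in many cells, read 2.99, 2.98 and 1.74 CPM in wild type and 3.91, 4.03 and 4.06 CPM in knockout. All 3 knockout values were above the wild-type values, but the change of 0.64 ± 0.32 did not pass (edgeR adjusted p = 0.155). The MCM loaders Cdc6 and Cdt1 had log2 fold changes of 0.29 ± 0.24 and 0.15 ± 0.18, with overlapping values (edgeR adjusted p = 0.369 and 0.534).

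No MCM gene passed in either direction by edgeR, DESeq2 or limma-voom, and 1 of the 6, Mcm2, had an unadjusted edgeR p under 0.05. Mcm2 read 26.1, 25.5 and 19.9 CPM in wild type and 30.2, 31.8 and 28.9 CPM in knockout, a log2 fold change of 0.35 ± 0.14 (edgeR adjusted p = 0.0796). Its 3 knockout values lay above the wild-type values, whereas the values of the other 5 genes overlapped. Mcm6, the gene with the highest level per kilobase of transcript in this ring, read 71.4, 67.0 and 60.2 CPM in wild type and 61.9, 71.4 and 66.2 CPM in knockout (log2 fold change 0.01 ± 0.11, edgeR adjusted p = 0.969). Mcm3, Mcm4, Mcm5 and Mcm7 had log2 fold changes of 0.20, -0.01, 0.28 and 0.10, with SEs of 0.13 to 0.17. Changes smaller than about 3 such SEs were not detectable here. Scaled to total counts alone, which moved the median of all genes by 0.42, Mcm2, Mcm3, Mcm5, Mcm6 and Mcm7 passed as higher with log2 fold changes of 0.42 to 0.76. With both libraries numbered 1 left out, Mcm3 alone of the 6 passed as higher (0.38, edgeR adjusted p = 0.0374).

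Of the 6 helicase activation genes 5 did not pass, and the exception, Gins1, had the largest change of the 40. Gins1 (chr2:150905400-150931280), a subunit of the GINS complex that joins the MCM ring to Cdc45, read 17.8, 21.1 and 19.5 CPM in wild type and 5.27, 7.11 and 8.07 CPM in knockout. Every knockout library was below every wild-type library, with a log2 fold change of -1.52 ± 0.19 (a 2.86-fold fall, edgeR adjusted p = 0.00128). Its partners Gins2, Gins3 and Gins4 had log2 fold changes of -0.29, -0.38 and -0.15 with overlapping values, and none passed (edgeR adjusted p = 0.293, 0.259 and 0.493). Per kilobase of transcript, Gins1 was the highest of the 4 in wild type at 17.9 CPM per kb, and in knockout it was at 6.27 CPM per kb, below Gins4 at 10.2. Cdc45 and Mcm10, which helps to activate the helicase, had log2 fold changes of -0.04 ± 0.24 and 0.03 ± 0.21.

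Prim1 and Pola1, the catalytic subunits of polymerase alpha-primase, both fell, whereas Pold1 and Pole, the catalytic subunits of polymerases delta and epsilon, rose. Prim1 (chr10:128015168-128030037), which makes the RNA part of the primer, read 32.4, 44.0 and 34.9 CPM in wild type and 14.4, 17.2 and 18.6 CPM in knockout. The highest knockout value was well below the lowest wild-type value, and the log2 fold change was -1.15 ± 0.16 (edgeR adjusted p = 0.00194). Pola1 (chrX:93304767-93632155), which extends the primer with DNA, read 25.8, 36.7 and 32.2 CPM in wild type and 12.4, 15.0 and 15.1 CPM in knockout. Its groups did not overlap either, with a log2 fold change of -1.15 ± 0.16 (edgeR adjusted p = 0.00207). For both genes this is a 2.22-fold fall. Pola1 lies on the X chromosome, and sex coincided with genotype in these libraries. The part of sex in the fall of Pola1 was not tested and cannot be told apart from that of genotype.

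Pold1 (chr7:44532746-44548849) read 7.88, 4.84 and 5.10 CPM in wild type and 11.6, 13.3 and 11.2 CPM in knockout. The groups did not overlap, and the log2 fold change was 1.02 ± 0.23 (edgeR adjusted p = 0.0127). That call was lost by a small margin without wild type 2 (adjusted p = 0.0510) or knockout 2 (0.0544). Pole (chr5:110286306-110337474) read 6.85, 7.03 and 5.45 CPM in wild type and 13.6, 8.48 and 9.51 CPM in knockout, with the highest value in knockout 1 (log2 fold change 0.71 ± 0.24, edgeR adjusted p = 0.0481). Pole stayed past the threshold in 3 of 16 alternative settings, and the adjusted p was above it without any 1 of the 6 libraries. As a description computed after these values were seen, the level per kilobase of Prim1 was 8.98 to 19.9 times that of Pold1 in wild type and 2.71 to 3.62 times in knockout. For Pola1 over Pold1, the ratio was 2.11 to 4.90 in wild type and 0.694 to 0.872 in knockout.

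Among the clamp and its loader, Rfc4 fell and the other 5 genes did not pass. Rfc4 (chr16:23113943-23127737), a small subunit of the loader, read 23.3, 28.8 and 20.5 CPM in wild type and 10.6, 12.8 and 13.0 CPM in knockout. The groups were far apart, with a log2 fold change of -0.998 ± 0.17 (edgeR adjusted p = 0.00389). The exons of Rfc4 share 12.7% of their bases with Eif4a2 on the opposite strand, which fell from 377 to 232 CPM, and whether the authors' counting used the strand is not given in the sources used here. Pcna, the sliding clamp, read 114, 123 and 106 CPM in wild type and 81.9, 96.0 and 99.9 CPM in knockout. Each knockout value was below each wild-type value, but the change of -0.30 ± 0.12 did not pass (edgeR adjusted p = 0.0739). Rfc1, Rfc3 and Rfc5 had log2 fold changes of -0.26, -0.31 and -0.29, and Rfc2 one of 0.06.

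Of the RPA subunits, which coat single-stranded DNA, Rpa3 fell. Rpa3 (chr6:8255936-8259173) read 26.4, 32.5 and 29.4 CPM in wild type and 19.6, 20.9 and 17.3 CPM in knockout, without overlap (log2 fold change -0.61 ± 0.13, edgeR adjusted p = 0.0106). Rpa2 read 9.56, 8.61 and 7.31 CPM in wild type and 10.9, 11.3 and 11.2 CPM in knockout. It lay higher in all 3 knockout libraries and did not pass (0.39 ± 0.17, edgeR adjusted p = 0.102). Rpa1, the large subunit, had a log2 fold change of -0.20 ± 0.10 (edgeR adjusted p = 0.163).

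Fen1, which cuts the flap off each Okazaki fragment, rose, and Lig1, which seals the nick, had a log2 fold change of 0.01 ± 0.15. Fen1 (chr19:10199132-10204169) read 17, 15.5 and 13.8 CPM in wild type and 19.3, 22.6 and 24.3 CPM in knockout. The groups did not overlap, with a log2 fold change of 0.52 ± 0.14 (edgeR adjusted p = 0.0257). Left out in turn, wild type 2, wild type 3, knockout 2 and knockout 3 each ended this call (adjusted p = 0.0738, 0.0886, 0.0842 and 0.0889). An antisense gene, Gm10143, covers 78.8% of the exonic bases of Fen1.

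Nucleotide supply had 2 genes that fell. Tyms (chr5:30058202-30073617), thymidylate synthase, read 60.2, 65.1 and 56.6 CPM in wild type and 37.5, 39.4 and 39.5 CPM in knockout. Libraries agreed closely within each genotype, and the log2 fold change was -0.64 ± 0.10 (edgeR adjusted p = 0.00272). Rrm1 (chr7:102441695-102469771), the large subunit of ribonucleotide reductase, read 89.9, 103 and 83.5 CPM in wild type and 58.4, 65.9 and 75.5 CPM in knockout. The groups did not overlap (log2 fold change -0.47 ± 0.13, edgeR adjusted p = 0.0271), but leaving out wild type 2, knockout 1 or knockout 2 ended the call (edgeR adjusted p = 0.102, 0.0749 and 0.0884). Rrm2, the small subunit of the same enzyme, had a log2 fold change of 0.04 ± 0.18 with overlapping values. Tk1, thymidine kinase, read 33.9, 23.0 and 23.4 CPM in wild type and 18.4, 21.9 and 21.7 CPM in knockout (-0.37 ± 0.18, edgeR adjusted p = 0.135).

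Chaf1a (chr17:56040439-56072289), a subunit of the CAF-1 complex that places histones on new DNA, rose. It read 11.1, 7.54 and 7.02 CPM in wild type and 13.1, 13.9 and 13.5 CPM in knockout, without overlap (log2 fold change 0.66 ± 0.20, edgeR adjusted p = 0.0378). With 1 library left out at a time, the edgeR adjusted p was 0.122 (wild type 2), 0.111 (wild type 3), 0.0697 (knockout 1), 0.106 (knockout 2) and 0.0873 (knockout 3). Ubxn6 on the opposite strand shares 52.5% of the exonic bases of Chaf1a and had a log2 fold change of -0.14 (edgeR adjusted p = 0.417). Uhrf1, which guides maintenance methylation to new DNA, had a log2 fold change of 0.07 ± 0.15.

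No S-phase entry member passed by edgeR, DESeq2 or limma-voom, and 0 of the 3 had an unadjusted edgeR p under 0.05. E2f1, an activating E2F factor, read 6.47, 5.29 and 4.58 CPM in wild type and 3.74, 5.44 and 6.76 CPM in knockout (log2 fold change -0.04 ± 0.29, edgeR adjusted p = 0.935). Ccne1 and Ccne2 encode the E cyclins that drive origin firing. Ccne1 read 5.65, 5.29 and 3.36 CPM in wild type and 6.63, 6.94 and 6.19 CPM in knockout, all 3 knockout values being higher (0.47 ± 0.26, edgeR adjusted p = 0.195). Ccne2 read 13.7, 22.2 and 19.1 CPM in wild type and 13.9, 16.0 and 15.0 CPM in knockout, with overlap (-0.29 ± 0.19, edgeR adjusted p = 0.255). Its calls went both ways: it was lower with wild type 1 left out (-0.47, edgeR adjusted p = 0.0367) or both libraries numbered 1 left out (-0.43, 0.0409), and higher with the trend over GC content removed (0.41, 0.0265). The log2 ratio of Ccne1 to Ccne2 per kilobase was -0.69, -1.48 and -1.92 in wild type and -0.48, -0.61 and -0.69 in knockout. Its mean difference of 0.77 gave p = 0.1 in a two-sided exact permutation test, which is the smallest p that 3 libraries against 3 allow (adjusted p = 0.1 over 2 ratios). With the trend over GC content removed, the log2 fold changes of Ccne1 and Ccne2 were 0.30 and 0.41, so the direction of this difference turned.

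The members cover some complexes in part, so subunits outside the 40 were read from the same fit. Prim2 and Pold4 are named by their small adjusted p, and the other subunits here were chosen after their values were seen. In polymerase alpha-primase 3 of 4 subunits fell. Prim2, the partner of Prim1, read 45.9, 42.7 and 36.2 CPM in wild type and 13.3, 16.1 and 15.4 CPM in knockout. Its groups did not overlap (log2 fold change -1.48 ± 0.14, edgeR adjusted p = 0.000557), while Pola2 had a log2 fold change of -0.09. Polymerase delta had 2 subunits that rose, Pold1 and Pold3 (0.58 ± 0.12), and 1 that fell, Pold4 (-0.89 ± 0.12). Polymerase epsilon likewise had Pole and Pole3 (0.37 ± 0.11) higher and Pole2 (-1.14 ± 0.23) lower. Pole3 was past the threshold in 7 of 16 alternative settings, and leaving out any 1 library other than wild type 1 ended its call.

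In the origin recognition complex Orc3, Orc4, Orc5 and Orc6 fell, with log2 fold changes of -0.83, -0.71, -0.76 and -0.82, and Orc1 and Orc2 did not pass. Orc3 and Orc4 were also chosen after their values were seen, and Orc4 lost its call when library 2 or library 3 of either genotype was left out. With the trend over GC content removed, the log2 fold change of Orc4 was -0.03 (edgeR adjusted p = 0.804), and those of Orc3 and Orc5 were -0.49 and -0.44. The 6 MCM genes spanned 0.36 on the log2 fold change scale, the smallest span of the 9 complexes compared, and polymerase delta spanned 1.904, the largest. Per kilobase, the MCM genes ran from 7.07 (Mcm2) to 15.2 (Mcm6) CPM per kb in wild type, a 2.15-fold span, and from 8.99 to 15.3 in knockout, a 1.699-fold span. The RFC genes spanned 3.83-fold in wild type and 2.003-fold in knockout, and the RPA genes 9.38-fold and 4.69-fold.

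**Figure D3:**
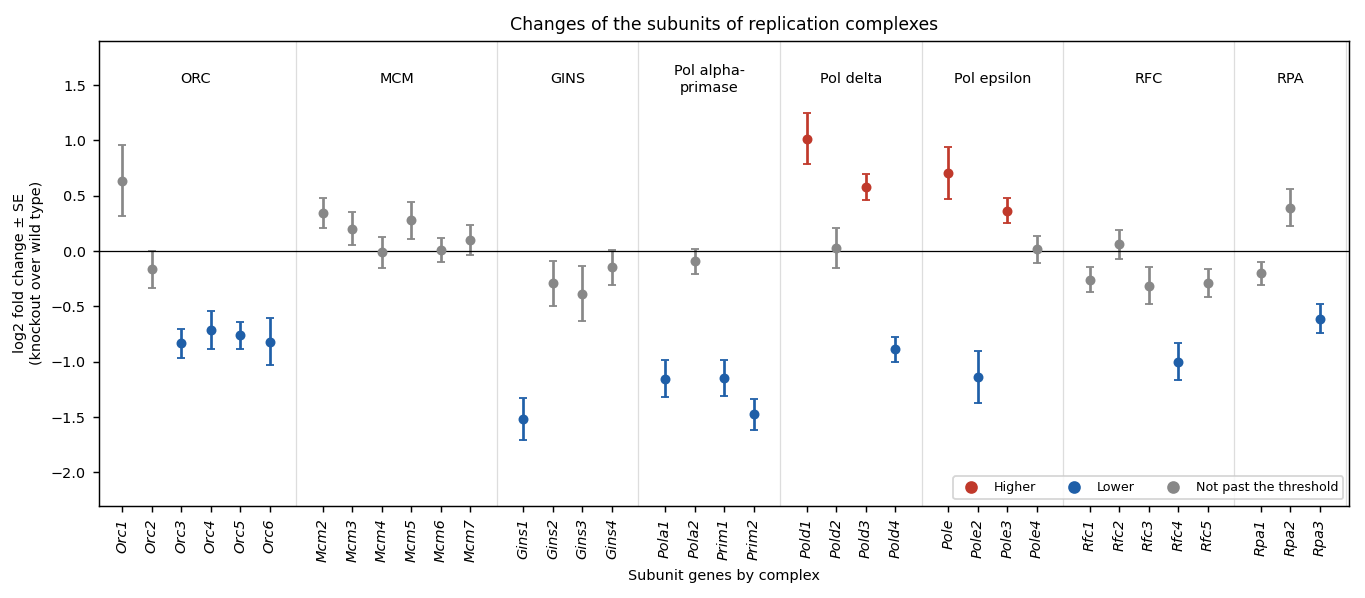
Log2 fold change (y axis, knockout over wild type; points, with bars of ±1 SE) of each subunit gene, grouped by complex and coloured by call. The MCM genes lie together near 0, 4 of the 6 origin recognition genes lie between -0.83 and -0.71, and polymerases delta and epsilon hold genes on both sides of 0.

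Other replication genes outside the 40, 42 in number, had 5 that rose and 12 that fell, and a median log2 fold change of -0.19. That is 11.9% higher and 28.6% lower, beside 19.3% and 19.2% of all genes tested. Without knockout 2, 7 fell. Gmnn, which encodes geminin, the inhibitor of Cdt1, read 32.7, 39.6 and 33.4 CPM in wild type and 14.2, 14.9 and 18.0 CPM in knockout. It was lower in all 3 knockout libraries (-1.17 ± 0.14, edgeR adjusted p = 0.00118), while Cdt1 itself did not pass. Orc5 fell from 25.9 ± 2.37 to 15.3 ± 0.582 CPM and Pold4 from 30.9 ± 2.28 to 16.7 ± 0.836 CPM (SD, n = 3 each).

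Of 30 tested genes that control S-phase entry, 7 rose and 6 fell, with a median log2 fold change of 0.21. These shares, 23.3% higher and 20% lower, were near the 19.3% and 19.2% of all genes tested. Without wild type 1, 11 rose, and without any 1 of the other 5 libraries 3 fell. Ccnd2, a D cyclin, read 109, 109 and 127 CPM in wild type and 384, 370 and 329 CPM in knockout. All knockout values were far above those of wild type (1.65 ± 0.12, edgeR adjusted p = 0.000252). Ccnd1, another D cyclin, rose from 76.9 ± 4.503 to 185 ± 59.3 CPM (SD, n = 3 each), with the highest value, 253 CPM, in knockout 1 (1.26 ± 0.21, edgeR adjusted p = 0.00423). Rb1, the retinoblastoma protein that restrains E2F factors, fell from 48.5 ± 3.92 to 23.0 ± 1.01 CPM (-1.08 ± 0.11, edgeR adjusted p = 0.000651). Ccna2, the S and G2 phase cyclin A, fell from 85.1 ± 3.27 to 51.2 ± 9.14 CPM (-0.73 ± 0.14, edgeR adjusted p = 0.00684).

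Of 31 checkpoint and recombination repair genes, 5 fell (16.1%, beside 19.2% of all genes tested) and 0 rose (0%, beside 19.3%) by edgeR. By DESeq2 and limma-voom 0 rose, while 1 had an unadjusted edgeR p under 0.05 as higher. Brca2, which acts in recombination repair and protects stalled forks, fell from 292 ± 8.84 to 65.2 ± 26.0 CPM (SD, n = 3 each; log2 fold change -2.16 ± 0.28, edgeR adjusted p = 0.00181). The count that fell was 8 without wild type 1 and 2 to 3 without any 1 of the others. The helicase gene Brip1 and the checkpoint kinase gene Chek1 had log2 fold changes of -0.77 and -0.79. Brip1 lost its call when any 1 library other than wild type 1 was left out, and Chek1 when any 1 other than wild type 1 and knockout 2 was. Both also lost it with the trend over GC content removed (-0.33 and -0.34, edgeR adjusted p = 0.167 and 0.187).

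Of 35 mitosis genes 13 fell (37.1%, beside 19.2% of all genes tested) and 1 rose (2.86%, beside 19.3%), and their median log2 fold change was -0.38. Without wild type 1, 3 rose. Mki67, the proliferation marker, read 215, 281 and 235 CPM in wild type and 101, 131 and 138 CPM in knockout. It was lower in all 3 knockout libraries (-0.99 ± 0.16, edgeR adjusted p = 0.00312). The kinetochore gene Spc25 and the spindle gene Nusap1 had log2 fold changes of -1.41 and -1.13, and Incenp, a subunit of the chromosomal passenger complex, rose (0.78 ± 0.12). Within each library, log2 levels per kilobase were averaged over the 6 MCM genes and over the mitosis genes. The first mean less the second was 0.46, 0.39 and 0.20 in wild type and 0.93, 0.76 and 0.87 in knockout. The groups did not overlap. Their means differed by 0.51, with p = 0.1 in a two-sided exact permutation test, the smallest this design allows (adjusted p = 0.1 over 2 ratios). As a log2 ratio within a library, this value does not depend on the scaling factors. However, the difference in mean log2 fold change between these lists fell from 0.50 to 0.31 with the trend over GC content removed.

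Transcript GC content moved with the changes. The 8 members that fell had a GC content of 40.4% to 47.8%, and the 4 that rose one of 50.6% to 60.7%, while the median of all genes tested was 50.04%. Across the 40 members Spearman's rho of log2 fold change and GC content was 0.65, and across 13988 tested genes it was 0.34. Genes share their libraries and are not independent replicates, so these are descriptions. With the trend over GC removed from each library, Gins1, Prim1, Pola1, Rfc4, Orc6 and Tyms still passed as lower, and Tk1 joined them (log2 fold change -0.63, edgeR adjusted p = 0.0122). Rpa3 (edgeR adjusted p = 0.359), Rrm1 (0.234), Fen1 (0.105), Chaf1a (0.0881) and Pole lost their calls, Pold1 kept its call, and Ccne2, the member with the lowest GC content at 36.3%, passed as higher (0.41, adjusted p = 0.0265). Among the calls that held, the log2 fold change of Pola1 moved from -1.15 to -0.72, that of Pold1 from 1.02 to 0.62, that of Rb1 from -1.08 to -0.65 and that of Nusap1 from -1.13 to -0.71.

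**Figure D4:**
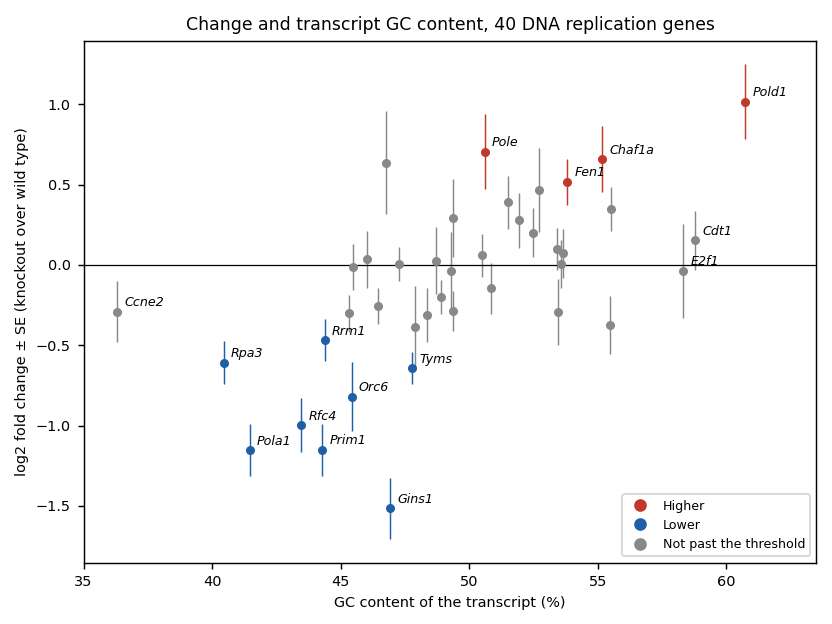
Log2 fold change (y axis, knockout over wild type; points, with bars of ±1 SE) against GC content of the transcript in percent (x axis) for the 40 genes, coloured by call. The genes that fell lie between 40.4% and 47.8% GC and those that rose between 50.6% and 60.7%.

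Gins1, Prim1, Pola1 and Rfc4 were lower with an adjusted p below the threshold in all 16 alternative settings, with highest adjusted p values of 0.00957, 0.0119, 0.0115 and 0.0296. Tyms was lower in 15 of 16, Pold1 higher in 13, Rpa3 lower in 13, Orc6 lower in 12 and Rrm1 lower in 10. Fen1 and Chaf1a were each higher in 9. Scaled to total counts alone, 17 members were higher and 4 lower, while the median of all genes moved up by 0.42. Orc6, Rpa3, Rrm1 and Tyms lost their lower calls under that scaling.

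**Figure D5:**
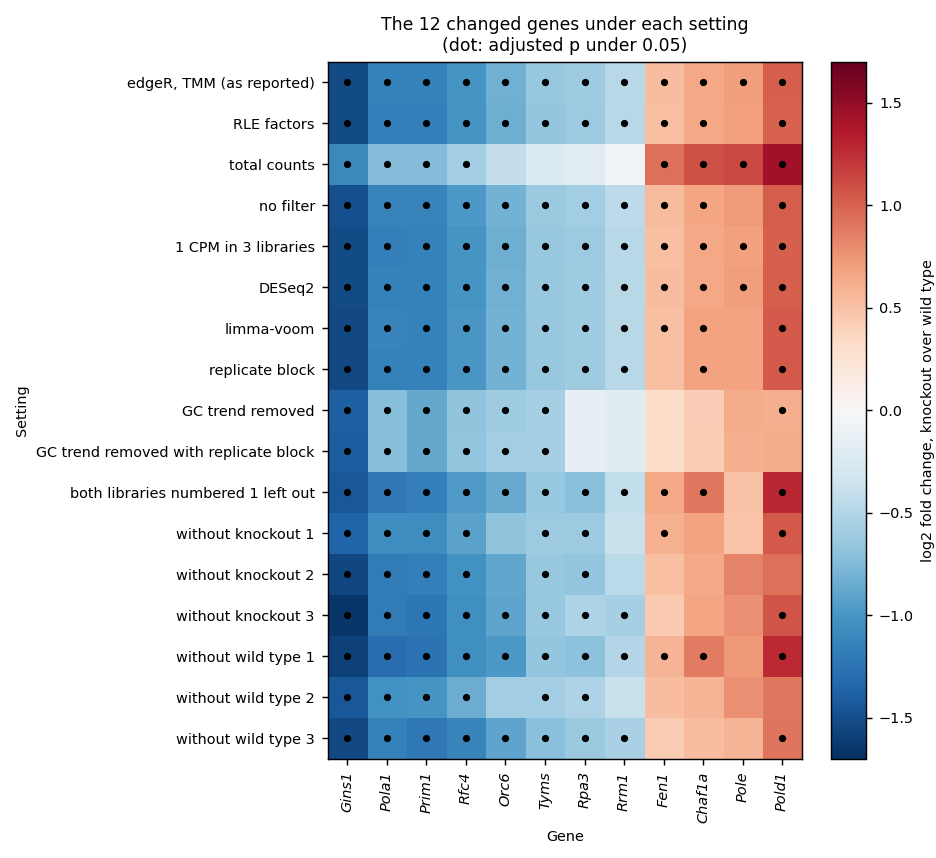
Log2 fold change (colour, knockout over wild type) of the 12 genes that passed (x axis) under the reported fit and 16 alternative settings (y axis), with a dot where the adjusted p was under 0.05. Dots fill the columns of Gins1, Pola1, Prim1 and Rfc4, and total counts shift every gene upwards.

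Markers of several other cell types differed between the genotypes in the same libraries. Summed markers of leukocytes were 2.72 to 13.8 CPM in wild type and 31.5 to 49.96 CPM in knockout, with 3 of 4 higher. Plasma cell markers summed to 0.225 to 0.652 and 155 to 499 CPM, B cell markers to 0.290 to 0.815 and 1.12 to 2.14 CPM, and T cell markers to 0.0562 to 0.380 and 1.25 to 1.701 CPM. The test covered 1 of 5 B cell genes, Cd79a, which was higher, and 0 of 4 T cell genes. The B cell gene Ms4a1 had 17 counts in wild type and 8 in knockout. Markers of the dividing B cells of germinal centres summed to 1.25 to 2.20 and 1.53 to 2.75 CPM, and the 1 gene of the 3 that could be tested did not pass. Markers of gland mucous cells were higher in 3 of 3 genes. Chief cell markers summed to 3924 to 5363 and 135 to 1116 CPM, nearly all of it Pgc, the 1 of 2 tested genes that was lower. Pga5, the other, averaged 8.52 and 7.96 CPM and did not pass (edgeR adjusted p = 0.927). Parietal cell markers summed to 113 to 457 and 8.50 to 65.1 CPM, with 2 of 3 lower. Squamous epithelium markers summed to 4.23 to 8.53 and 16.5 to 87.6 CPM, most of it Krt13, with 3 of 3 tested genes higher. Krt5, Krt6a and Trp63 had at most 29 counts over a genotype and were not tested. Smooth muscle markers summed to 170 to 2548 and 63.4 to 759 CPM, which overlapped, and 0 of 4 passed in either direction. S100a8 and S100a9, genes of granulocytes, read 60.0 and 89.6 CPM in knockout 1, the library with the lowest value for 29 members, and at most 0.706 and 1.96 CPM in the other 5 libraries. The mitochondrial share of all counts was 8.37% to 13.0% for wild type and 7.21% to 8.62% for knockout libraries. The part of cell makeup and RNA quality in the changes of the replication genes was not tested.

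Of the 40 members, 14 share exonic bases with a gene on the opposite strand, 8 of them over 10%. Besides those given above, Gins2 shares 67.3% with Gse1, Ccne2 17.4% with Ints8, Rfc2 15.1% with Lat2, Rfc5 10.7% with Wsb2 and Orc1 10.8% with Gm12743. Orc6 shares 6.93% with Vps35, which fell from 299 to 145 CPM. Levels of these members are uncertain to the extent that reads of the partner were counted with them. The annotated copies Pcna-ps1, Pcna-ps2 and Tyms-ps had 0, 4 and 1 counts over all libraries.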

How the data were processed

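RNA-seq libraries of antral mucosa, 3 per genotype, were made with a Nucleospin RNA kit and a TruSeq Stranded mRNA kit, per the labels' protocols. The values the authors deposited are estimated counts, with a row per gene and a column per library. That these are estimated counts was read from the values, since 28.8% to 34.25% of values above 0 are not whole. The build was mm10, per the submitters' processing notes. The aligner, counting program, annotation and use of strand were not given in the sources used here. Because the labels do not tie libraries to separate animals, p-values measure only how far these samples spread, which can be technical spread.

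Counts were rounded to whole numbers and matched to GENCODE M21, where 214 of 34866 genes had no symbol. Genes were kept with filterByExpr, scaled by TMM and tested with robust quasi-likelihood fits (edgeR 4.0.16 in R 4.3.3) with Benjamini-Hochberg adjustment over 14017 genes at a false discovery rate of 0.05. The common biological coefficient of variation was 0.283. The SE of a log2 fold change is its size divided by the square root of the F statistic. Levels per kilobase use the longest protein-coding transcript. Since library totals were similar, genes with fewer counts are the less precise. Scripts were tested on simulated counts with few changed genes and no trend over GC content. The data differ from them in both respects, so that test does not gauge the calls reported here.

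All 40 members are named, with up to 4 past the threshold, those of smallest adjusted p, in each of 4 lists of related genes, Muc6 and the Y-linked genes. Of the genes so named, 1 is not reported here. Members and lists were chosen with earlier results of these data known. The alternatives, which number 16, were RLE factors, total counts, no filter, 1 CPM in 3 libraries, DESeq2 1.42.0, limma-voom (limma 3.58.1), the replicate number as a block, removal of each library's trend over GC content without and with that block, both libraries numbered 1 left out, and each library left out. Figures were drawn with matplotlib 3.10.9.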

Additional observations from a re-analysis of the deposited data

How the results depend on the processing

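Of the comparisons of named genes under the 16 alternatives, 776 kept their direction and side of the threshold, 54 changed direction without passing in either, 62 lost the call, 19 gained one and 1 was called against its reported direction: Ccne2, at -0.29 and not past the threshold as reported, was called higher with the GC trend removed (0.41). Scaled to total counts, 5730 of all genes were higher and 1091 lower, 17 members were higher and 4 lower with a median of 0.40, other replication genes had 12 higher and 6 lower, S-phase entry control 18 and 1, checkpoint and repair 4 and 1, and mitosis 6 and 4. This setting moved the median of all genes by 0.42. The cause of the other differences was not tested.

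With the GC trend removed, 2 members were higher, 3 S-phase entry control genes and 2 checkpoint genes lower and 2 mitosis genes higher, and the mean log2 fold change of the MCM genes less that of the mitosis genes fell from 0.50 to 0.31. The labels state no pairing by library number, and the values do not settle whether there was one. The deviations of same-numbered libraries from their genotype means correlated at 0.252, 0.0908 and 0.191, and 4 of 6 libraries correlated best with their own number. On the second principal component, wild type 1 and knockout 1 lay at 62.6 and 43.3, and the other libraries between -43.7 and -18.8. With the replicate number as a block, 2 members were higher and 8 lower, since Fen1 (adjusted p = 0.0563) and Pole (0.0584) lost their calls. With the block and the GC trend removed, 0 members were higher, 6 other replication, 2 checkpoint and 8 mitosis genes lower and 2 mitosis genes higher, and the MCM less mitosis value was 0.32.

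With both libraries numbered 1 left out, the members' median was 0.12, 12 S-phase entry control genes were higher, 8 checkpoint genes lower and 3 mitosis genes higher. With each library left out in turn, 1600 (without wild type 2) to 3045 of all genes were higher and 1721 (without knockout 2) to 2964 lower, and 0 to 3 members higher. The ranges were 7 to 11 for other replication genes lower, 6 to 11 and 3 to 6 for S-phase entry control higher and lower, 2 to 8 for checkpoint genes lower and 1 to 3 for mitosis genes higher.

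At these depths, differences of genes such as Orc1, E2f1 and Ccne1, below about 10 CPM, are the least precise, and their SEs of 0.26 to 0.32 exceed those of Mcm6 and Tyms (0.11 and 0.10).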
